A study of Mus musculus with 59 samples.

Results

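The Pdgfra locus was followed through every deposited list of histone-mark islands and peaks, in mouse gliomas and in neural precursor cultures with or without the K27M change in the histone H3f3a. Members were all H3K27me3 islands, H3K27ac peaks and H3K4me3 peaks that touch a 140 kb window of mm9 chromosome 5, chosen by position and not by any measured value. The window holds 48 kb before the gene, the gene itself (about 46 kb, read in the direction of rising coordinates) and 46 kb beyond it. This gave 302 intervals of 1107554 in all lists, made up of 64 H3K27me3 islands, 178 H3K27ac peaks and 60 H3K4me3 peaks.

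Chromatin immunoprecipitation and sequencing had been done on 2 systems. Brainstem tumours came from mice with an inducible, Nestin-driven recombinase (Nestin-creERT2), floxed Trp53 and the recombinase-dependent transgene LSL-PDGFRαV544ins, an altered PDGFRα. On that shared background the mice carried either H3f3aLSL-K27M-Tag/+ (6 tumours, numbered 1 to 6, of which 4 were from males) or the tagged wild-type allele H3f3aLSL-WT-Tag/+ (5 tumours, numbered 7 to 11, of which 1 was from a male). H3K27me3 and H3K27ac were profiled in all 11 tumours and H3K4me3 in 5 of them. Neurospheres, floating cultures of neural precursors, came from e15.5 embryos with Nestin-cre and the same H3f3a alleles. They comprised 3 hindbrain K27M, 3 hindbrain WT and 3 forebrain K27M libraries, in 3 experiments, each profiled for H3K27me3. Their genotype names neither the PDGFRα transgene nor floxed Trp53, so tumours and neurospheres differ in these as well as in tissue. Nestin marks neural precursors, and the labels do not say how much of a tumour sample was tumour cells.

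Pdgfra encodes the receptor tyrosine kinase PDGFRα, which binds platelet-derived growth factors and drives growth and migration of oligodendrocyte precursor cells. The receptor is a well-known driver of high-grade glioma, including diffuse midline glioma with the histone K27M change. H3K27me3 is laid down by Polycomb repressive complex 2 and accompanies silent developmental genes. H3K27ac is found at promoters and enhancers in use, and H3K4me3 at promoters. Methylation and acetylation use the same lysine of a histone tail, so one tail cannot carry both, although a nucleosome, a cell or a mixed tissue can. The tumour mice carry a PDGFRα transgene, and reads from it that align to the gene's own exons cannot be told apart from reads of the endogenous gene in these lists.

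The sequence just before the gene start is shown because, in tumours with lists of all 3 marks, each mark had intervals near the mm9 start. It is the RefSeq promoter entry for Pdgfra on build GRCm38.p6, chr5:75152001-75152250, plus strand, with CG dinucleotides in capitals. Coordinates of that build are not those of the islands and peaks, which are on mm9. The mm9 start used here is an approximate bound, and the sequence was not placed on mm9. No interval is therefore assigned to these bases.

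Pdgfra, bases before the start: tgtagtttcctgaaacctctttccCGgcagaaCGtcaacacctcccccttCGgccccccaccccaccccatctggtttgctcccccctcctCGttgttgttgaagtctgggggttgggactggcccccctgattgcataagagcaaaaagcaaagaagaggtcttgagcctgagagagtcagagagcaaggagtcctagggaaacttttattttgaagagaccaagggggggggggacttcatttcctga

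These 250 bases hold 4 CG dinucleotides. With the next 50 bases the entry holds 5, against a median of 7 over 32851 promoter entries of the same length, and 51% of its bases are G or C against a median of 52.7%. Neither CCAAT, found on either strand in 37.4% of promoter entries, nor TATAAA, found in 13.6%, occurs in these letters. By RefSeq order the genes before Pdgfra are Chic2 and Gsx2 and those after it are Kit and Kdr. Their mm9 positions were not used here, so no interval is assigned to them or to an exon, intron or UTR of Pdgfra, and neither other PDGF pathway genes nor cell type markers were examined.

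The lists differ in size. Reads inside H3K27me3 islands numbered 3208590 to 16323800 in a library, on islands covering 121 to 232 Mb in K27M tumours, 136 to 347 Mb in WT tumours, 81.0 to 97.7 Mb in hindbrain K27M neurospheres, 82.4 to 83.5 Mb in forebrain K27M neurospheres and 192 to 217 Mb in hindbrain WT neurospheres. Total depth and spike-in factors were not used here, so no value measures the absolute amount of a mark, and covered length can move with depth. In bulk chromatin, a larger share of cells with a mark cannot be told apart from more of the mark per cell.

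**Figure D1:**
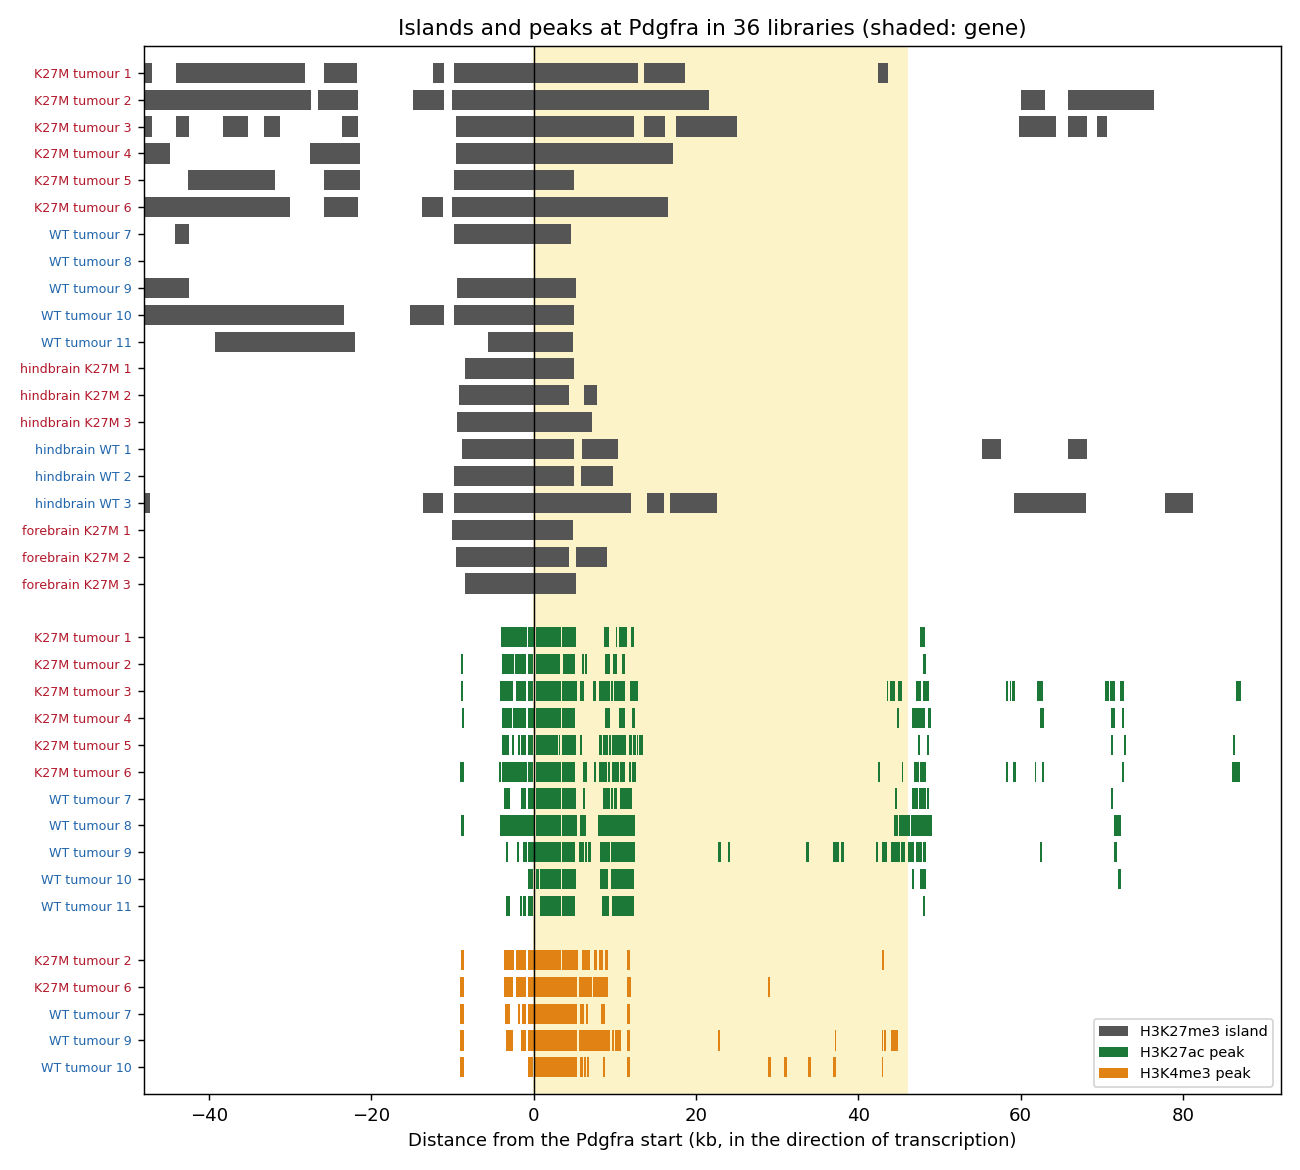
Each line is 1 library and each bar 1 H3K27me3 island (grey), H3K27ac peak (green) or H3K4me3 peak (orange), plotted by distance in kb from the Pdgfra start, with the gene shaded. An island spans the gene start in 19 of the 20 H3K27me3 libraries, and in 5 of 6 K27M tumours it runs more than 12 kb into the gene.

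H3K27me3 lay over the start of Pdgfra in almost every sample, acetylated tumours included. An island spanned the gene start in 19 of 20 libraries, the exception being WT tumour 8, whose list has no island in the window. In 18 of the 19 libraries the island began between -10 and -8.4 kb from the gene start, and in WT tumour 11 it began at -5.6 kb, where minus signs mark positions before the start. In 12 of the 19 it ended 4.4 to 5.2 kb inside the gene. The 5 K27M tumours with longer islands, hindbrain K27M library 3 and hindbrain WT library 3 made up the rest.

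The island reached further into the gene in 5 of the 6 K27M tumours than in any WT tumour. It ended 12.8 kb inside the gene in K27M tumour 1, 21.6 kb in tumour 2, 12.4 kb in tumour 3, 17.2 kb in tumour 4, 5.0 kb in tumour 5 and 16.6 kb in tumour 6. In WT tumours it ended at 4.6 kb in tumour 7, 5.2 kb in tumour 9, 5.0 kb in tumour 10 and 4.8 kb in tumour 11. The mean was 14.3 ± 5.65 kb (SD, n = 6) against 4.90 ± 0.258 kb (SD, n = 4), with p = 0.0238 in a two-sided exact permutation test, where the smallest possible p was 0.00476. Adjusted over the 30 measures added after the data were seen, p was 0.0858. How many other islands differ as much in reach was not counted. K27M tumours 1 to 4 and WT tumour 9 were from males and the others from females. The part of sex in this reach was not tested.

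Over the gene as a whole, H3K27me3 islands covered 17.0 ± 6.30 kb (SD, n = 6) in K27M tumours and 3.92 ± 2.20 kb (SD, n = 5) in WT tumours. The 6 K27M values were 19.0, 21.6, 22.4, 17.2, 5.0 and 16.6 kb for tumours 1 to 6. The WT values were 4.6 kb in tumour 7, 0 kb in tumour 8, 5.2 kb in tumour 9, 5.0 kb in tumour 10 and 4.8 kb in tumour 11. The groups met only in K27M tumour 5, which had as much as WT tumour 10. The difference of 13.0 kb gave p = 0.00866 in a two-sided exact permutation test (0.0858 adjusted over the 30 added measures), and p = 0.0286 without WT tumour 8. How many gene-sized regions share such a difference was not counted. Sex is uneven between the genotypes, and with genotype permuted within sex the exact p was 0.0267, where 0.0133 was the smallest possible.

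Over the 140 kb window the islands covered 51.0, 74.6, 49.8, 36.2, 30.0 and 51.4 kb in K27M tumours 1 to 6. They covered 16.2 kb in WT tumour 7, 0 kb in tumour 8, 20.2 kb in tumour 9, 43.6 kb in tumour 10 and 27.6 kb in tumour 11. WT tumours 7, 8, 9 and 11 lay below all K27M tumours, and WT tumour 10 lay among them. The means were 48.8 ± 15.4 kb (SD, n = 6) and 21.5 ± 16.0 kb (SD, n = 5), a difference of 27.3 kb with a standard error of 9.52 kb. Exact permutation of the 11 values (two-sided) gave p = 0.0173, or 0.0865 adjusted over the 10 measures planned for the locus.

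The same test was run on autosomal tiles of 140 kb. Of 12026 tiles with H3K27me3 in a tumour, 9.74% had an unadjusted p under 0.05, so the unadjusted call at Pdgfra is one that many tiles share. The adjusted p of the Pdgfra window was 0.359, and no tile passed after adjustment (exact permutation, Benjamini-Hochberg). In size, 1.20% of tiles had a difference at least as far in the K27M direction, and the median tile had 1.12 kb less in K27M tumours (a difference of -1.12 kb).

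Before the gene, K27M tumours had 28.2 ± 8.48 kb of islands (SD, n = 6) and WT tumours 17.6 ± 14.3 kb (SD, n = 5), with p = 0.162 in the exact permutation test. One region there, from -102 to -21.4 kb (mm9 chr5:75446001-75526600, so that most of it lies outside the window), had islands in all 11 tumours, as did 5.3% of 57859 merged H3K27me3 regions. Its islands held 936 ± 413 CPM (SD, n = 6) in K27M tumours and 563 ± 285 (SD, n = 5) in WT tumours, where CPM stands for reads per 1000000 reads in regions common to the tumours, after composition scaling. The log2 fold was 0.73 (SE 0.43) with an adjusted p of 0.282 (edgeR quasi-likelihood, 3067 regions, of which 7.11% were called higher in K27M and 4.66% lower). Beyond the gene, K27M tumours 2 and 3 had islands, of 13.6 and 8.2 kb, and no WT tumour did (exact permutation p = 0.455). Of the 6 merged H3K27me3 regions in the window, 1 had enough calls to test, at -15.2 to -11 kb, called in 3 of 6 K27M and 1 of 5 WT tumours (Fisher's exact p = 0.545). Of 11285 testable regions, 5.99% had an unadjusted p under 0.05.

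**Figure D2:**
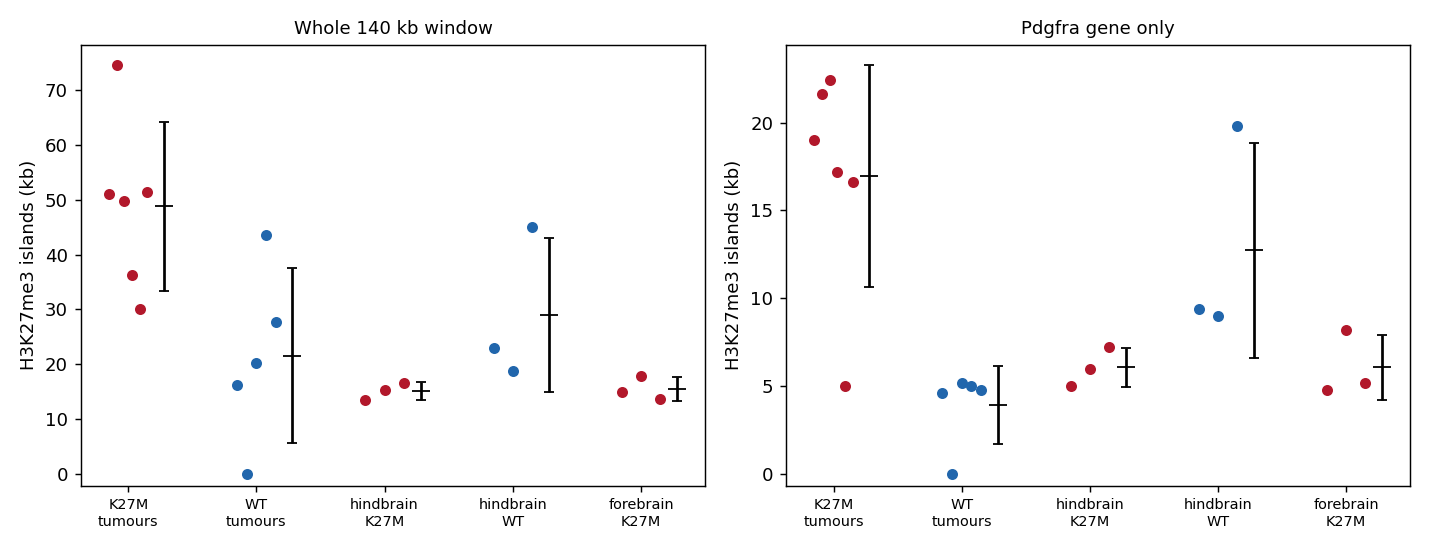
Each point is 1 library and shows the length in kb covered by H3K27me3 islands in the 140 kb window (left) and in the Pdgfra gene (right), by group, with the mean and SD as a black bar. In the gene, 5 K27M tumours lie between 16.6 and 22.4 kb while WT tumours lie between 0 and 5.2 kb.

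Read counts at the gene start could be tested in the 10 tumours other than WT tumour 8, because the lists count reads in islands alone. Leaving it out was decided after its list was seen to lack the island, so the 4 WT tumours are those that have one. The merged region ran from -10 to 25.0 kb (mm9 chr5:75538001-75573000). Its islands held 321, 416, 294, 281, 438 and 424 CPM in K27M tumours 1 to 6. They held 122, 108, 119 and 248 CPM in WT tumours 7, 9, 10 and 11. All 6 K27M tumours were above all 4 WT tumours. The share of regions with such a separation was not counted.

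The log2 fold was 1.28 (SE 0.29) in favour of K27M, with an adjusted p of 0.0154 (edgeR quasi-likelihood, 3349 regions). In that comparison 6.66% of regions were called higher in K27M tumours and 2.54% lower. The call was lost without WT tumour 7, with a log2 fold of 1.15 and an adjusted p of 0.0666, and without WT tumour 10, with a log2 fold of 1.16 and an adjusted p of 0.0522. Without composition factors the median region moved from a log2 fold of -0.04 to -0.24 and the start region to 1.10, with an adjusted p of 0.0248, while called regions went from 223 higher and 85 lower to 179 and 221. The sum per region grows with island length. Per kb of the island over the gene start, K27M tumours had 8.38 ± 1.87 (SD, n = 6) reads per 1000000 island reads, against 6.07 ± 3.34 (SD, n = 4) for WT tumours, with p = 0.195 in an exact permutation test. Against the median island of the same list it was 2.26 ± 0.459 times as dense in K27M tumours (SD, n = 6) and 1.49 ± 0.248 times as dense in WT tumours (SD, n = 4), with p = 0.0286 in the exact permutation test, or 0.0858 adjusted over the 30 added measures. By either scale the groups overlapped.

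In hindbrain neurospheres the genotypes stood apart in the read density of the island over the gene start, and overlapped in its length, 14.5 ± 1.79 kb (SD, n = 3) for K27M against 16.8 ± 4.36 kb (SD, n = 3) for WT, with p = 0.5 in an exact permutation test. It held 563, 472 and 403 reads per kb in the K27M libraries of experiments 1 to 3. In the WT libraries it held 109, 182 and 157 reads per kb. Every K27M library was more than 2 times as dense as every WT library.

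Scaled to the reads in all islands of a list, hindbrain K27M neurospheres had 68.1 ± 11.99 (SD, n = 3) reads per kb per 1000000 island reads and hindbrain WT neurospheres had 15.7 ± 3.42 (SD, n = 3). The groups did not overlap, which gives p = 0.1, the smallest an exact permutation test of 3 against 3 allows. The share of islands with such a separation in density was not counted. Against the median island of the same list, the Pdgfra island was 20.9, 18.2 and 14.3 times as dense in K27M libraries and 4.25, 6.92 and 5.84 times as dense in WT libraries. The WT lists hold more islands (18604 to 19667) than the K27M lists (9078 to 10739), so ranks are given as a percentage of the list. By density the Pdgfra island lay in the top 0.382%, 0.698% and 1.04% of the K27M lists and in the top 1.33%, 0.593% and 0.981% of the WT lists, and by that measure the genotypes overlapped.

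The count test called the start region (mm9 chr5:75538201-75560000) higher in K27M. Its islands held 1763, 1994 and 1668 CPM in the K27M libraries and 230, 378 and 378 in the WT libraries, over regions common to the 6 libraries. The log2 fold was 2.46 (SE 0.22) with an adjusted p of 0.000248 (edgeR quasi-likelihood, 3334 regions). Of those regions 25.9% were called higher in K27M and 28.4% lower, so a call in either direction was common. Fewer regions had a log2 fold above that of Pdgfra, at 0.720%. The neighbouring region before it, from -89.0 to -47.2 kb, touches the window in WT library 3 and had a log2 fold of 2.71 (SE 0.24, adjusted p = 0.000212, edgeR quasi-likelihood). Without composition factors the median region moved from a log2 fold of -0.11 to -1.02 and the start region to 1.54, with an adjusted p of 0.000887, while called regions went from 863 higher and 946 lower to 319 and 2129.

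**Figure D3:**
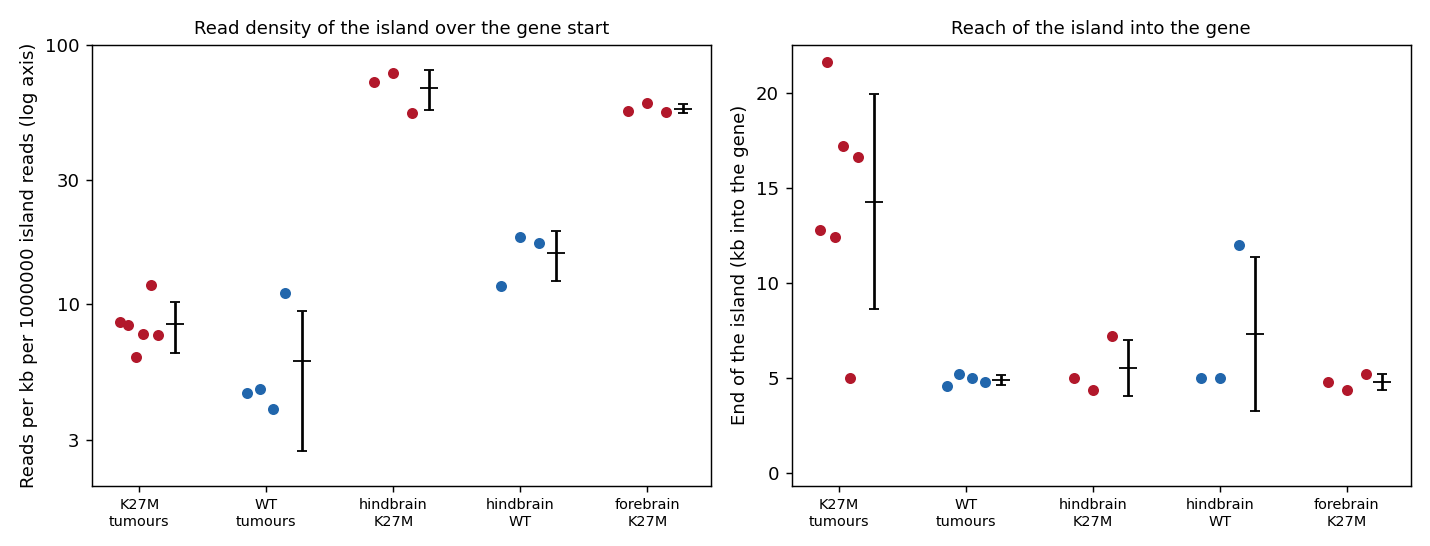
Each point is the island over the Pdgfra start in 1 library, shown by its reads per kb per 1000000 island reads on a log axis (left) and by how far it runs into the gene in kb (right), with the mean and SD as a black bar. WT tumour 8 has no island. Density is high in K27M neurospheres (54.7 to 77.8) and reach is long in 5 of 6 K27M tumours (12.4 to 21.6 kb).

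In length over the window the hindbrain order was the reverse of that in tumours. Islands covered 13.4, 15.2 and 16.6 kb in hindbrain K27M libraries and 23.0, 18.8 and 45.0 kb in WT libraries. The groups did not overlap, and p = 0.1 was the smallest possible in the exact permutation test. Among 8035 tiles, 61.9% were lower in K27M without overlap, so the Pdgfra window lay on the side where most tiles lay. As a share of the whole list the window took slightly more in K27M libraries, a difference of 0.00216 percentage points (exact permutation p = 0.7). WT library 3 was also the only hindbrain culture from a male, and the only neurosphere library with an island beyond 12 kb in the gene. The part of sex in this was not tested. Without WT library 3 the difference went from -13.9 to -5.83 kb, and when each list was trimmed by rank to an equal number of islands it was -4.93 kb (exact permutation p = 0.8).

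Genotype differences in covered kb went in opposite directions in tumours and hindbrain neurospheres, but the window's share of the list did not. As a share, the K27M difference in the window was 0.0160 percentage points in tumours and 0.00216 in hindbrain neurospheres. The genotypes overlapped in that share in both systems. Reads in the start region, as given above, were higher in K27M in both systems among the libraries tested. That sum grows with island length. Per kb of the island over the gene start, the genotypes overlapped in tumours and stood apart in hindbrain neurospheres. In the window the K27M difference was 27.3 kb in tumours and -13.9 kb in hindbrain neurospheres, which differ by 41.2 kb (p = 0.00216, exact permutation of genotype within each system, 9240 arrangements). This permutation assumes no genotype effect in either system, so an effect in tumours alone can lower its p. The p-values of this paragraph therefore do not test whether the 2 differences are equal. In the gene they were 13.0 and -6.67 kb, which differ by 19.7 kb (exact permutation p = 0.000758). Without hindbrain WT library 3 the difference between systems was 33.1 kb in the window (exact permutation p = 0.00325). With lists trimmed in that way it was 22.9 kb in the window (exact permutation p = 0.0452) and 11.6 kb in the gene (exact permutation p = 0.0103). Over 12433 tiles, 6.32% had a difference between systems at least as large as the window's, and the median tile had 1.67 kb. Transgene, Trp53 status, tissue and culture vary together with the system and cannot be told apart.

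Forebrain and hindbrain K27M neurospheres were close in the length of H3K27me3 at Pdgfra, and forebrain libraries had fewer reads at the gene start, a difference that did not pass the count test. Islands covered 14.8, 17.8 and 13.6 kb of the window in forebrain libraries, a difference of 0.333 kb with a standard error of 1.55 kb from hindbrain K27M (exact permutation p = 0.9). The start island held 351, 301 and 333 reads per kb in forebrain libraries, all below the hindbrain K27M libraries. Scaled to the reads in all islands of a list the groups overlapped, since forebrain libraries had 56.7 ± 2.31 (SD, n = 3) reads per kb per 1000000 island reads against 68.1 ± 11.99 (SD, n = 3) for hindbrain libraries (p = 0.4, exact permutation). Over regions common to the 6 libraries, the start region held 884, 933 and 800 CPM in forebrain libraries of experiments 1 to 3 and 1013, 1167 and 911 CPM in hindbrain libraries, so forebrain was lower within each experiment. The start region had a log2 fold of -0.24 (SE 0.12) for forebrain against hindbrain, with an adjusted p of 0.158 (edgeR quasi-likelihood, 3363 regions), where 31.4% of regions were called in one direction or the other. With experiment as a block it was also -0.24, with an adjusted p of 0.0546. Without composition factors it was -0.31 with an adjusted p of 0.0337.

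Between systems, K27M tumours had 33.8 kb more of the window covered than hindbrain K27M neurospheres, which lay between 13.4 and 16.6 kb, below all 6 tumours. This gave p = 0.0119, the smallest the exact permutation test allows, and 26.6% of tiles had an unadjusted p under 0.05. In the gene alone the difference was 10.9 kb (exact permutation p = 0.0595). WT tumours and hindbrain WT neurospheres differed by -7.41 kb (exact permutation p = 0.518), where 12.6% of tiles had an unadjusted p under 0.05. In the gene alone the difference was -8.81 kb, lower in WT tumours without overlap, and p = 0.0179 was the smallest the exact permutation test allows. WT tumours had 0 to 5.2 kb there, and hindbrain WT libraries 1 to 3 had 9.4, 9.0 and 19.8 kb. The share of gene-sized regions with such a separation was not counted. Reads in islands of hindbrain K27M libraries, 6067550 to 7824110, lay inside the range of K27M tumours, 4905240 to 14433900. Reads in islands are not total depth, and the part of depth in these differences was not tested. With lists trimmed by rank to an equal number of islands, K27M tumours had 23.2 kb more than hindbrain K27M neurospheres (exact permutation p = 0.0357), and WT tumours differed by -7.15 kb from hindbrain WT neurospheres (exact permutation p = 0.5). For K27M, the order by read density was the reverse. Against the median island of its list, the island over the gene start was 1.40 to 2.64 times as dense in K27M tumours. It was 14.3 to 20.9 times as dense in hindbrain K27M neurospheres. In WT tumours with that island it was 1.24 to 1.71 times as dense, against 4.25 to 6.92 times in hindbrain WT neurospheres. These density differences between systems were not tested.

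H3K27ac marked the start of Pdgfra in all 11 tumours whatever the genotype. The 178 peaks merged into 25 sites, of which 5 were called in every tumour. Across the genome 15.2% of 99012 merged H3K27ac intervals were called in all tumours. The 5 sites lay at -4.28 to 0.06 kb from the gene start (mm9 chr5:75543722-75548060), at 0.20 to 3.38 kb (chr5:75548203-75551381), at 3.45 to 5.30 kb (chr5:75551455-75553303), at 7.99 to 12.9 kb (chr5:75555990-75560901), and across the end of the gene at 43.9 to 49.1 kb (chr5:75591943-75597116). The site from 0.20 to 3.38 kb held the strongest peak in 11 of 11 tumours.

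Peak strength is the authors' −log10 q, which depends on the depth of each list and is used here only within a tumour. For the strongest site it was 54.3, 41.4, 49.5, 62.7, 36.8 and 55.6 in K27M tumours 1 to 6. It was 59.6, 104, 110, 80.0 and 26.998 in WT tumours 7 to 11. At the site across the gene end it was 4.54 at the lowest, 9.18 at the median and 16.9 at the highest. The strongest peak was thus well above the last site in every tumour. It ranked 4909, 6413, 1282, 812, 2241 and 3997 in the lists of K27M tumours 1 to 6, which hold 36284 to 61251 peaks. In WT tumours 7 to 11 it ranked 6959, 292, 702, 8281 and 8434 of 37558 to 59261 peaks. WT tumour 8, with no H3K27me3 island, had the best rank. On a log10 scale the ranks differed by 0.0116 between genotypes (exact permutation p = 0.974).

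**Figure D4:**
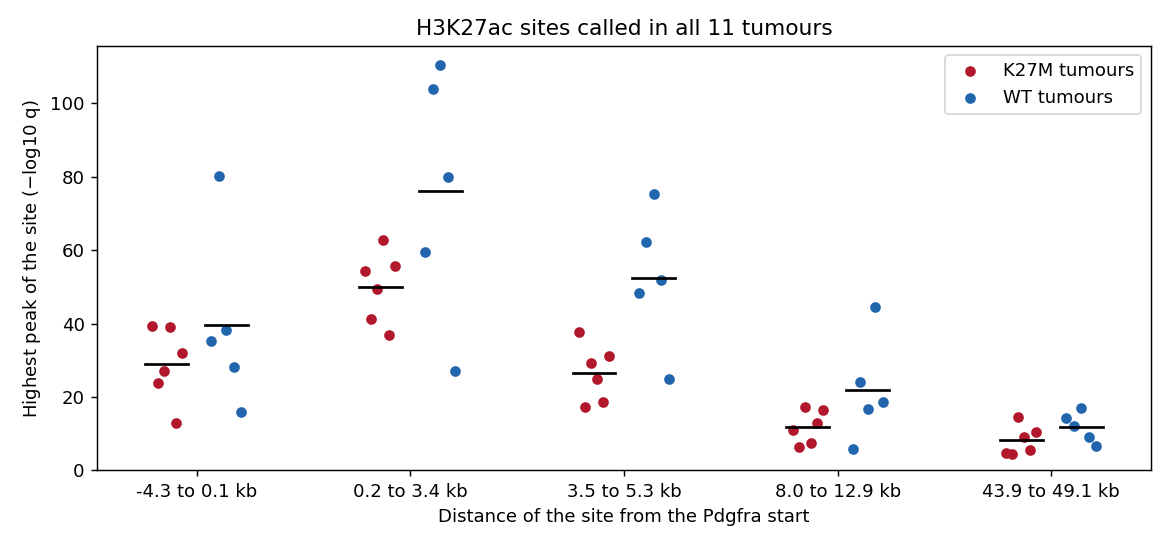
Points show the highest H3K27ac peak of each of the 5 sites called in all 11 tumours, as the authors' −log10 q, with K27M tumours in red, WT tumours in blue and group means as black lines; the values depend on the depth of each list. Within every tumour the site from 0.2 to 3.4 kb inside the gene is the strongest.

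No difference in the extent of H3K27ac was detected between the genotypes. Peaks covered 11.4, 10.7, 20.2, 13.5, 13.0 and 17.3 kb of the window in K27M tumours 1 to 6. They covered 12.4, 19.9, 19.1, 10.5 and 9.76 kb in WT tumours 7 to 11. The ranges overlapped almost fully. Their means were 14.3 ± 3.69 kb (SD, n = 6) for K27M and 14.3 ± 4.82 kb (SD, n = 5) for WT, a difference of 0.0112 kb with a standard error of 2.63 kb (exact permutation p = 0.998). Of 12030 tiles, 4.51% had an unadjusted p under 0.05 in this comparison. Peaks numbered 18 ± 6.87 (SD, n = 6) and 14 ± 6.78 (SD, n = 5), and exact permutation gave p = 0.39. The window was rich in the mark, since between 0.550% and 7.44% of the 17641 tiles had more H3K27ac length in the same tumour.

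The parts of the window were also compared apart. Before the gene, K27M tumours had 3.71 ± 0.604 kb of peaks (SD, n = 6) and WT tumours 2.13 ± 1.45 kb (SD, n = 5), where exact permutation gave p = 0.0433, or 0.118 adjusted over the 30 added measures. Inside the gene the lengths were 8.26 ± 1.81 kb (SD, n = 6) for K27M and 10.2 ± 3.01 kb (SD, n = 5) for WT, with p = 0.232 in the same exact test. Of the 25 sites, 8 were called in K27M tumours alone and 6 in WT tumours alone, as were 24.5% and 25.8% of all 99012 merged intervals. Those 6 were all called in WT tumour 9 alone, and those 8 only in K27M tumours 3, 5 and 6. No site was called in all tumours of one genotype and none of the other. The largest difference in calls was at a site 86.1 to 87.1 kb beyond the start (mm9 chr5:75634088-75635104), called in K27M tumours 3, 5 and 6 and no WT tumour (Fisher's exact p = 0.182). Next was a site at -9.04 to -8.60 kb (chr5:75538966-75539396), called in 4 of 6 K27M and 1 of 5 WT tumours (Fisher's exact p = 0.242). Sites at 7.26, 58.2 and 58.9 kb followed, each called in 2 K27M tumours and no WT tumour. Of the 3 sites with enough calls to test, 0 had an unadjusted p under 0.05, against 2.44% of 14880 testable intervals.

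H3K4me3 lay over the same start of the gene. It covered 11.9 and 13.1 kb of the window in K27M tumours 2 and 6. It covered 9.43, 14.6 and 9.41 kb in WT tumours 7, 9 and 10. WT tumour 9 was highest and the other WT tumours were lowest, so the genotypes overlapped. The means were 12.5 ± 0.805 kb (SD, n = 2) and 11.1 ± 2.99 kb (SD, n = 3), and exact permutation gave p = 0.6, where 0.1 is the smallest possible. The numbers of peaks were 12 and 9 in the K27M tumours and 10, 16 and 13 in the WT tumours (exact permutation p = 0.4).

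The 60 H3K4me3 peaks merged into 17 sites, and 5 were called in all 5 tumours, as were 48.6% of 41271 merged H3K4me3 intervals. The strongest ran from 0.11 to 5.41 kb inside the gene (mm9 chr5:75548109-75553412), with −log10 q of 130 and 207 in K27M tumours 2 and 6 and 101, 161 and 129 in WT tumours 7, 9 and 10. It ends close to where the H3K27me3 island ends in WT tumours 7, 9 and 10, at 4.6, 5.2 and 5.0 kb. In K27M tumours 2 and 6 the island runs on to 21.6 and 16.6 kb. The other sites called in all 5 tumours lay at -9.06 to -8.58 kb (chr5:75538943-75539422), at -0.75 to 0.06 kb (chr5:75547255-75548055), at 5.60 to 9.36 kb (chr5:75553601-75557357) and at 11.47 to 12.03 kb (chr5:75559472-75560029). The first of these overlaps the H3K27ac site at the same distance before the gene. Further into the gene, small peaks of 0.20 to 0.73 kb lay mostly in WT tumours 9 and 10, and 8 of the 17 sites were called in WT tumours alone, as were 17.6% of all merged H3K4me3 intervals. There were 3 WT lists against 2 K27M lists.

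The marks were then set against each other within each tumour. H3K27ac peaks inside an H3K27me3 island of the same tumour took up 10.8, 10.3, 14.1, 10.0, 6.92 and 13.2 kb in K27M tumours 1 to 6. They took up 6.30, 0, 6.43, 5.12 and 5.61 kb in WT tumours 7 to 11. Every K27M tumour was above every WT tumour, and the share of tiles with such a separation was not counted. This overlap is not independent of the H3K27me3 lengths given above, which were longer in K27M tumours. Mean H3K27ac length was 14.3 kb in both groups. The mean overlap was 10.9 ± 2.56 kb (SD, n = 6) for K27M and 4.69 ± 2.68 kb (SD, n = 5) for WT, and exact permutation gave p = 0.00433, or 0.0858 adjusted over the 30 added measures. Without WT tumour 8 the exact p was 0.019.

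As a share of all H3K27ac length in the window K27M tumours had 77.6% ± 16.4 (SD, n = 6) and WT tumours 38.1% ± 23.0 (SD, n = 5) (exact permutation p = 0.00649, or 0.0858 adjusted over the 30 added measures, and 0.0238 unadjusted without WT tumour 8). Over the whole peak lists the shares were 14.2% ± 4.50 (SD, n = 6) for K27M and 6.85% ± 3.01 (SD, n = 5) for WT, where exact permutation gave p = 0.013, also 0.0858 adjusted. The means thus lay in the same order over the whole lists as at Pdgfra, so that order was not particular to the locus. In 10 of 11 tumours the share at Pdgfra was above that of the whole list. Lists of bulk tissue do not show whether both marks were in the same cells.

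**Figure D5:**
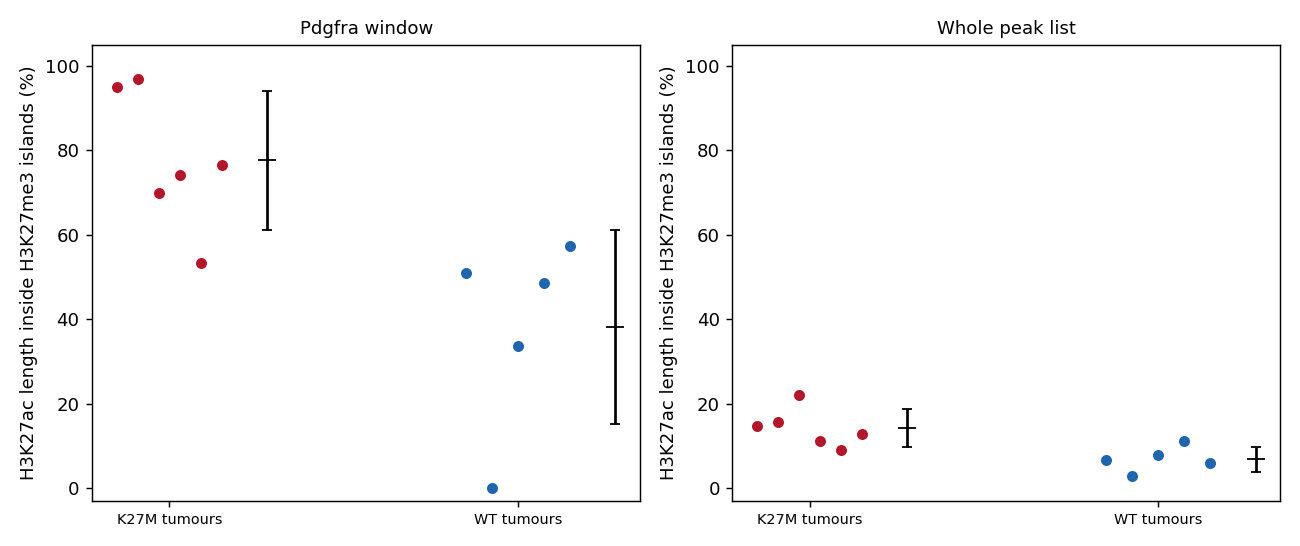
Each point is 1 tumour and shows the percentage of H3K27ac peak length that lies inside H3K27me3 islands of the same tumour, in the Pdgfra window (left) and over the whole list (right), with the mean and SD as a black bar. K27M tumours range from 53.3% to 96.9% in the window and WT tumours from 0% to 57.4%.

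In the 5 tumours with all 3 marks, the length carrying all of them was 8.86 and 10.1 kb in K27M tumours 2 and 6. It was 5.96, 6.18 and 5.11 kb in WT tumours 7, 9 and 10. The groups did not overlap, and p = 0.1 was the smallest the exact permutation test of 2 against 3 allows. The share of tiles with such a separation was not counted. H3K27me3 islands held 97.4% and 98.4% of the H3K4me3 length in the K27M tumours and 74.7%, 53.0% and 63.2% in the WT tumours. Over the whole peak lists they held 25.9% and 23.7% in the K27M tumours and 18.9%, 19.9% and 23.0% in the WT tumours.

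The 3 tiles whose H3K27me3 length followed the Pdgfra window most closely over the 20 libraries were mm9 chr14:63040001-63180000 (Pearson's r = 0.930), chr6:131220001-131360000 (r = 0.924) and chr5:147880001-148020000 (r = 0.915). The libraries share list sizes that differ by system, and these values are a description.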

How the data were processed

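Each list came from 1 sample, and the 23 input samples of 59 were not analysed here. Tools named in the submitters' processing notes, without roles, are MACS2, SICER 1.1, BWA 0.7.12, SAMtools, Picard, bedtools 2.25.0 and R 2.14.0, with build mm9. For each H3K27me3 island the deposited lists give a count of reads (SICER layout, 200 bp window and 600 bp gap by file name). For each H3K27ac or H3K4me3 peak the deposited lists give the caller's own score, ratio over background (fold enrichment), −log10 of the p-value and −log10 of the q-value, the last being 2 or more. Drosophila chromatin was added per the labels' protocols, and no scale factor was used.

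Intervals were clipped to the window for lengths and merged into sites where they shared 1 bp. Single values were compared by two-sided exact permutation of group means, calls by Fisher's exact test, both with SciPy 1.17.1, numpy 2.4.6 and pandas 2.3.3 in Python 3.11.15 (figures with matplotlib 3.10.9). Reads were summed over regions called in every library of a comparison and tested with edgeR 4.0.16 in R 4.3.3 (quasi-likelihood, TMM factors, Benjamini-Hochberg, threshold 0.05). DESeq2 1.42.0 served as an alternative. The scripts were tested on simulated data. Precision is limited by library number and by island and peak calling, which leaves no count outside calls. No label says that samples of a group came from separate animals, so p-values measure the spread between samples.

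The labels give neurosphere libraries an experiment number shared across groups, which pairs them. The deviations of libraries that share a number had correlations of 0.21, 0.24 and 0.21 for the forebrain and hindbrain K27M groups, and of 0.098, -0.035 and 0.019 for the hindbrain genotypes. Experiment as a block was an alternative. The members and lists were chosen with earlier results of these data known. All window intervals were counted, and those printed were, by rule, sites called in all tumours, the strongest site, the largest differences in calls and the 3 most similar tiles. PDGF pathway genes and cell type markers needed mm9 positions and were not analysed here.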

Additional observations from a re-analysis of the deposited data

Results flagged for a closer look

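Within K27M tumours, the H3K27me3 length in the Pdgfra gene of tumour 5 was 5 kb and stood apart from the other 5, which lay between 16.6 and 22.4 kb. Within WT tumours, the value of tumour 8 was 0 kb and stood apart from the other 4, which lay between 4.6 and 5.2 kb. Among 18 groups of values examined for a single distant sample, these were the 2 found, and chance gives about 1 in 20 groups.

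The genotype difference in covered kb was not the same in tumours and hindbrain neurospheres, by 41.2 kb in the window and by 19.7 kb in the gene. The permutation above does not test whether the genotype effects are equal. As a share of the list, the window difference had the same sign in both systems.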

How the results depend on the processing

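The tumour difference in window H3K27me3 length kept its direction and an unadjusted p under 0.05 in every alternative, from 13.0 kb in the gene alone (p = 0.00866) to 39.7 kb in a wider window (p = 0.039), with 19.6 kb for islands of at least the median reads (p = 0.0455), and from 21.9 to 32.8 kb with 1 tumour left out (exact permutation tests). Experiment as a replicate block changed no call for region reads, with log2 folds of 2.49, 2.74 and -0.24. For length it gave -13.9 and 0.333 kb for the hindbrain genotypes and for forebrain against hindbrain. With 3 libraries a group neither length test, blocked or not, can reach 0.05, so no length call could change.

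Directions reversed, or calls changed, as follows. For hindbrain genotypes, where the difference was -13.9 kb, window length as a share of the list gave 0.00216 percentage points, and with 1 library left out the difference was -18.9 to -5.83 kb. Forebrain against hindbrain gave -0.4 kb with islands of at least the median reads, and -0.867 to 1.23 kb with 1 library left out. WT tumours against WT neurospheres gave 0.32 kb with islands of at least the median reads, -12.9 to 0.62 kb with 1 library left out (0.62 kb without WT hindbrain library 3), and -8.81 kb (exact permutation p = 0.0179) in the gene. K27M tumours against K27M neurospheres gave 10.9 kb in the gene (exact permutation p = 0.0595). H3K27ac length gave -1.92 kb in the gene, -0.656 kb with lists of equal number, -0.666 kb at −log10 q of at least 5, and -1.16 to 1.40 kb with 1 tumour left out. The log10 best rank gave -0.060 in the wider window, -0.222 to 0.143 with 1 tumour left out, and -3.02 as a percentage of the list. H3K4me3 length gave -0.230 kb in the gene. The log2 fold of start region reads ranged from 1.15 to 1.63 in tumours with 1 further tumour left out, and was -0.31 for forebrain against hindbrain without composition factors. Over all common regions of the 11 tumours, 218 were called higher and 143 lower in K27M, against 158 and 300 without composition factors and 339 and 295 with DESeq2. In the 10 tumours other than WT tumour 8, DESeq2 called 365 and 268 where edgeR called 223 and 85. The causes were not tested. Calls limit what can be seen: a region just below the authors' threshold has no value.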
